A study of Bos taurus and other sequences with 9 samples.

Results

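The microRNAs (miRNAs) described here are the mature products of the miR-23, miR-24 and miR-27 clusters, chosen by name as hsa-miR-23a-3p, hsa-miR-23b-3p, hsa-miR-24-3p, hsa-miR-27a-3p and hsa-miR-27b-3p. They are 5 of the 425 miRNAs in the deposited count table. They were measured by small RNA sequencing in 9 samples of cell culture media, from RNA isolated with a kit that captures extracellular vesicles (EVs). The study asked how much serum-derived RNA is left in media after EV depletion.

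There were 2 samples of each of 4 serum media and 1 sample of a defined medium. FBS is fetal bovine serum, with FBS-1 from Sigma-Aldrich and FBS-2 from Gibco. UC-dFBS was serum depleted by ultracentrifugation, and UF-dFBS was the flow-through of an ultrafiltration membrane. Both were made from the same sera, so that UC-dFBS-1 and UF-dFBS-1 came from the Sigma-Aldrich serum, and UC-dFBS-2 and UF-dFBS-2 from the Gibco serum. SBI-dFBS is a commercial EV-depleted serum from System Biosciences, represented by 2 lots. The serum media held DMEM/F12 with penicillin and streptomycin, whereas StemPRO is a defined serum- and xeno-free medium for mesenchymal stem cells. Each sample was 1 library of cell-free medium, so that the spread between samples covers sera or lots together with technical error.

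The clusters are a pair of related loci, each of which is transcribed as a single precursor and cut into 3 hairpins. One locus gives miR-23a, miR-27a and miR-24, and the other gives miR-23b, miR-27b and miR-24. They are well known from endothelial and blood cells and from circulating RNA. Members of the miR-27 family act on genes of lipid metabolism and adipocyte differentiation, miR-24 on cell cycle genes, and miR-23 on glutaminase. In the cattle assembly ARS-UCD2.0, MIR23A, MIR27A and MIR24-2 were 3 neighbouring genes on 1 chromosome, inside the uncharacterised gene LOC132345691 and followed by ZSWIM4. MIR23B, MIR27B and MIR24-1 were 3 neighbouring genes inside AOPEP, with FANCC as the next gene.

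The names are human because reads were matched to human miRNAs. The mature miR-23a-3p and miR-23b-3p are near-identical, as are miR-27a-3p and miR-27b-3p, so that the split within each pair is uncertain. Mature miR-24-3p is the same from both loci, and its source could not be told apart. The 3p arms held 3160 counts over all 9 samples, whereas the other arms of the same hairpins held 5. Of the 6 other arms looked for, 3 were in the table. miR-23b-5p had 1 count in FBS-2 and 2 in UC-dFBS-2, and miR-24-2-5p (FBS-1) and miR-27a-5p (FBS-2) had 1 count each.

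The libraries differed in depth. Totals were 26275 to 203755 miRNA counts for FBS, SBI-dFBS and UC-dFBS, whereas UF-dFBS-1 held 4204, UF-dFBS-2 held 937 and StemPRO held 1438. Levels are given as spike-in normalized counts, which are counts divided by a factor the authors derived from added RNAs of known amount. A single count was worth between 0.00926 (StemPRO) and 0.265 (SBI-dFBS-2) spike-in normalized counts. Intervals on levels are exact Poisson 95% intervals, those on shares are Wilson 95% intervals, and both cover counting error only. A count of 0 was read as allowing up to 3 counts.

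miR-23a-3p was the most abundant of the 5 in FBS by mean level, at 49.2 ± 6.84 spike-in normalized counts (SD, n = 2), followed by miR-27b-3p at 41.3 ± 21.4, miR-24-3p at 33.5 ± 11.7, miR-23b-3p at 28.1 ± 6.98 and miR-27a-3p at 8.82 ± 6.79. Neighbours among the first 4 did not differ beyond the spread of the sera, and the order itself differed between the sera, with miR-27b-3p first in FBS-1 and miR-23a-3p first in FBS-2. Among all miRNAs of its sample, miR-23a-3p ranked from 25 to 45 in FBS, SBI-dFBS and UC-dFBS. It ranked 14 (UF-dFBS-1), 18 (UF-dFBS-2) and 14 (StemPRO) in the others, although its level was lowest there. miR-27a-3p was the lowest of the 5 in each sample of FBS, SBI-dFBS and UC-dFBS.

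The FBS levels of miR-23a-3p were 44.4 (FBS-1) and 54.1 (FBS-2), followed by 25.8 (SBI-dFBS-1), 13.2 (SBI-dFBS-2), 13.0 (UC-dFBS-2), 8.11 (UC-dFBS-1), 0.597 (UF-dFBS-1), 0.250 (UF-dFBS-2) and 0.231 (StemPRO). FBS did not overlap with any other medium, and SBI-dFBS-2 lay next to UC-dFBS-2. Those of miR-23b-3p were 23.1 (FBS-1) and 33.0 (FBS-2), followed by 17.4 (SBI-dFBS-1), 9.53 (UC-dFBS-2), 5.82 (SBI-dFBS-2), 4.59 (UC-dFBS-1), 0.344 (UF-dFBS-1), 0.291 (UF-dFBS-2) and 0.0926 (StemPRO). The ranges of SBI-dFBS and UC-dFBS overlapped for miR-23b-3p.

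The FBS levels of miR-27b-3p were 56.4 (FBS-1) and 26.2 (FBS-2), followed by 10.9 (SBI-dFBS-1), 7.65 (UC-dFBS-1), 6.62 (SBI-dFBS-2), 3.52 (UC-dFBS-2), 0.127 (UF-dFBS-1), 0.0833 (UF-dFBS-2) and 0.0740 (StemPRO). Both FBS samples lay above all others, and SBI-dFBS overlapped with UC-dFBS. Those of miR-27a-3p were 13.6 (FBS-1) and 4.02 (FBS-2), followed by 1.22 (UC-dFBS-1), 1.06 (SBI-dFBS-2), 1.03 (UC-dFBS-2), 0.774 (SBI-dFBS-1), 0.0724 (UF-dFBS-1) and 0.0370 (StemPRO). It had 0 counts in UF-dFBS-2, which at 3 counts allows up to 0.125, and outside FBS it rested on at most 8 counts per sample.

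The FBS levels of miR-24-3p were 41.7 (FBS-1) and 25.2 (FBS-2), followed by 7.95 (UC-dFBS-1), 7.19 (SBI-dFBS-1), 6.88 (SBI-dFBS-2), 4.69 (UC-dFBS-2), 0.0463 (StemPRO) and 0.0362 (UF-dFBS-1). The UF-dFBS-1 value rested on 2 counts, and UF-dFBS-2 had 0 counts, which again allows 3 counts, or 0.125. SBI-dFBS and UC-dFBS overlapped, and FBS lay apart from both. Above 1 spike-in normalized count, which the study took as moderate to high abundance, lay 5 of 5 in FBS, UC-dFBS and SBI-dFBS-2, 4 of 5 in SBI-dFBS-1 (without miR-27a-3p), and 0 of 5 in UF-dFBS and StemPRO. Of all 425 miRNAs, 211 (FBS-1), 171 (FBS-2), 134 (SBI-dFBS-1), 138 (SBI-dFBS-2), 119 (UC-dFBS-1), 100 (UC-dFBS-2), 8 (UF-dFBS-1), 6 (UF-dFBS-2) and 2 (StemPRO) lay above it.

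**Figure D1:**
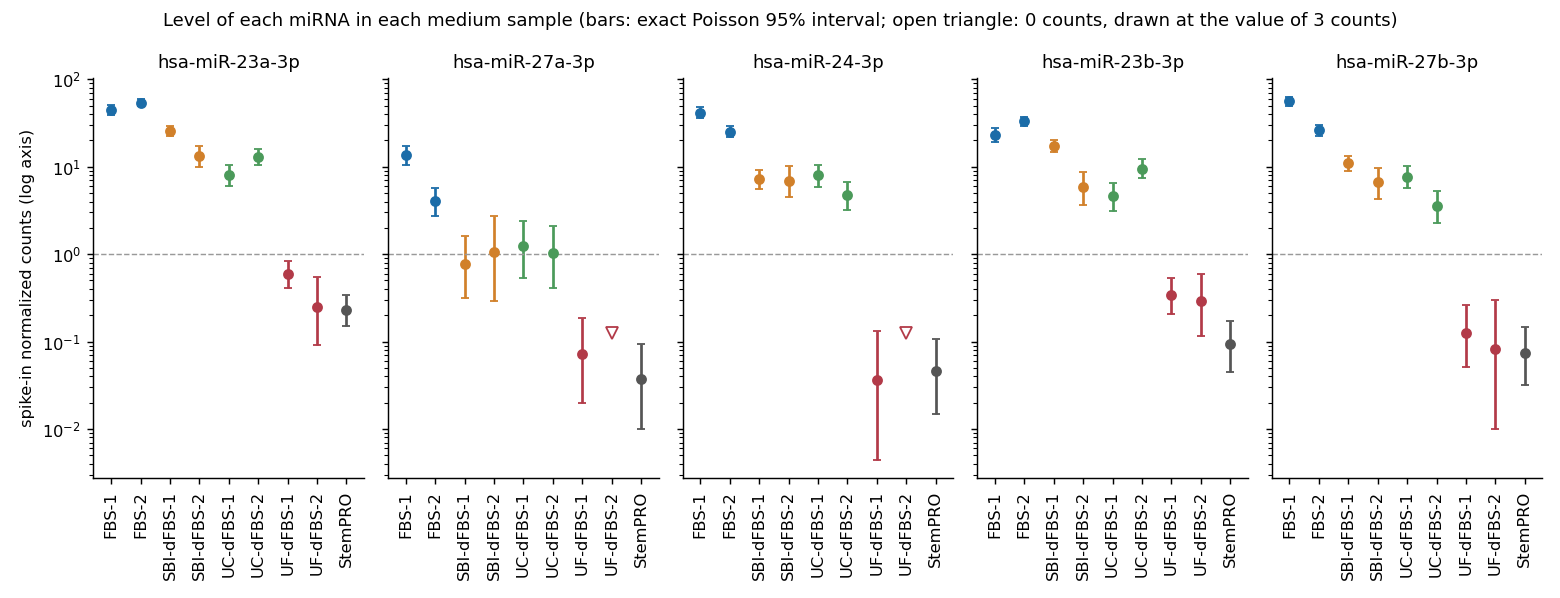
Level of each miRNA in each of the 9 samples (spike-in normalized counts, log axis), with points for single libraries, bars for exact Poisson 95% intervals, open triangles for 0 counts at the value of 3 counts, and a dashed line at 1. The UF-dFBS and StemPRO samples lie under 1 for all 5 miRNAs, and miR-24-3p and miR-27a-3p had 0 counts in UF-dFBS-2.

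The summed level of the 5 miRNAs was 179 (FBS-1) and 142 (FBS-2) in the sera, then 62.0 (SBI-dFBS-1), 33.6 (SBI-dFBS-2), 31.8 (UC-dFBS-2), 29.5 (UC-dFBS-1), 1.18 (UF-dFBS-1), 0.624 (UF-dFBS-2) and 0.481 (StemPRO). UC-dFBS kept 19.1% of the FBS mean and UF-dFBS 0.560%. SBI-dFBS, which shares no serum with FBS, was at 29.7% of this mean, and StemPRO was at 0.299%. As a share of the miRNA counts of its sample, the sum went the other way, from 0.426% (FBS-1) and 0.854% (FBS-2) to 1.55% (UF-dFBS-1), 1.60% (UF-dFBS-2) and 3.62% (StemPRO). In the latter samples the sum rested on 65, 15 and 52 counts.

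The make-up of the 5 differed between the sera and between the media. miR-23a-3p and miR-23b-3p together were 37.7% (34.5 to 40.9) of the counts of the 5 in FBS-1 and 61.1% (58.1 to 64.0) in FBS-2. After ultracentrifugation the same sera gave 43.0% (36.2 to 50.1) in UC-dFBS-1 and 71.0% (64.6 to 76.6) in UC-dFBS-2, so that the Gibco serum held the larger miR-23 share in both media. In UF-dFBS-1 the miR-23 share was 80.0% (68.7 to 87.9) and in UF-dFBS-2 86.7% (62.1 to 96.3), the highest of the 9 samples. The interval of UF-dFBS-1 did not overlap with that of FBS-1, FBS-2 or UC-dFBS-1, and overlapped with that of UC-dFBS-2. It also overlapped with that of SBI-dFBS-1, at 69.5% (65.6 to 73.2), and StemPRO, at 67.3% (53.8 to 78.5). It lay above the interval of SBI-dFBS-2, which was at 56.7%. The interval of UF-dFBS-2, on 15 counts, overlapped with those of FBS-2 and UC-dFBS-2 of the same serum. The UF-dFBS-2 interval also overlapped with those of SBI-dFBS-1, SBI-dFBS-2 and StemPRO, and lay above those of FBS-1 and UC-dFBS-1. In the Gibco serum the miR-23 share after ultrafiltration was therefore not told apart from that in the other media. These shares do not depend on the spike-in scale.

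**Figure D2:**
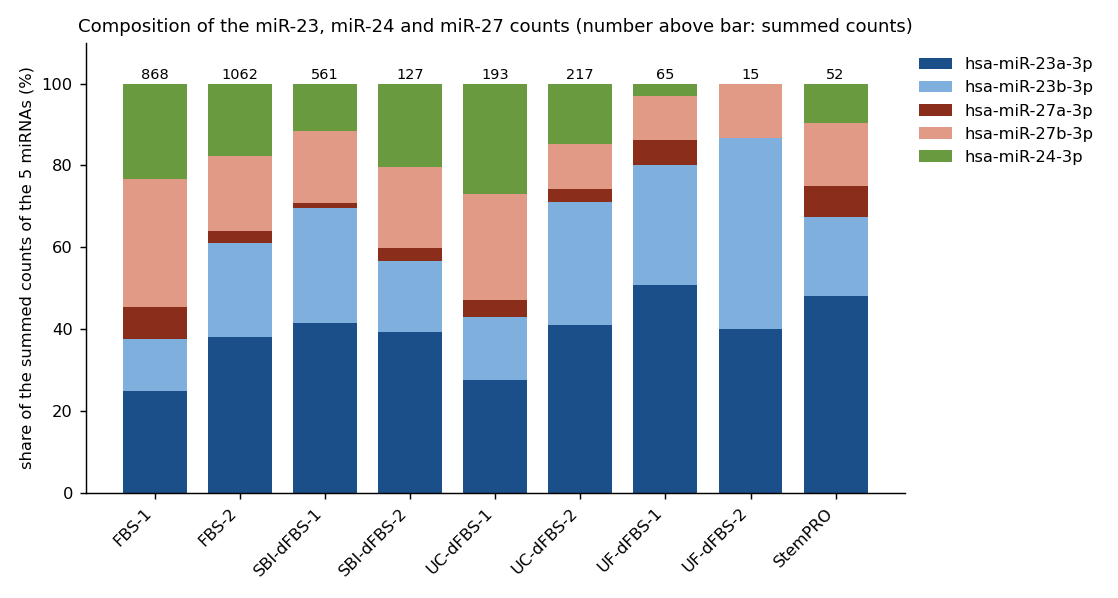
Share of each miRNA (percent) in the summed counts of the 5 for each sample, with the summed counts above each bar. The miR-23 share (blue) is larger in FBS-2 and UC-dFBS-2 than in FBS-1 and UC-dFBS-1, and miR-24-3p (green) is at 2 counts in UF-dFBS-1 and 0 in UF-dFBS-2.

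Within the pairs of near-identical miRNAs, the counts under the a and b names were unequal in opposite ways, although this split is uncertain. miR-23a-3p had more counts than miR-23b-3p in 8 of 9 samples, from 57.8% of the pair (UC-dFBS-2) to 71.4% (StemPRO), and with 65.7% (FBS-1) and 62.1% (FBS-2) in the sera. The exception was UF-dFBS-2, at 46.2% (23.2 to 70.9) of 13 counts. miR-27b-3p, in contrast, had more counts than miR-27a-3p in 9 of 9 samples, with 80.5% (FBS-1) and 86.7% (FBS-2) of the pair in the sera and from 77.4% (UC-dFBS-2) to 93.4% (SBI-dFBS-1) across UC-dFBS and SBI-dFBS. Its share was 63.6% in UF-dFBS-1, of 11 counts, and 66.7% in StemPRO, of 12 counts, and both counts of the pair in UF-dFBS-2 were miR-27b-3p.

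The share of miR-24-3p differed between the sera and was alike before and after ultracentrifugation. Of the counts of miR-24-3p and miR-23a-3p together, miR-24-3p was 48.4% (43.7 to 53.2) in FBS-1 and 49.5% (40.1 to 58.9) in UC-dFBS-1. It was 31.8% (28.2 to 35.7) in FBS-2 and 26.4% (19.4 to 34.9) in UC-dFBS-2, and the intervals of the 2 sera did not overlap in either medium. In UF-dFBS-1 the share of miR-24-3p was 5.71% (1.58 to 18.6), under the interval of FBS-1, FBS-2, UC-dFBS-1 and UC-dFBS-2. In UF-dFBS-2 it was 0% (0 to 39.0) of 6 counts. This interval lay under those of FBS-1 and UC-dFBS-1 and overlapped with those of FBS-2 and UC-dFBS-2. In the other media the share was 21.8% (17.5 to 26.8) in SBI-dFBS-1, 34.2% (24.5 to 45.4) in SBI-dFBS-2 and 16.7% (7.34 to 33.6) in StemPRO. The UF-dFBS-1 interval overlapped with those of SBI-dFBS-1 and StemPRO and lay under that of SBI-dFBS-2. The UF-dFBS-2 interval overlapped with those of SBI-dFBS-1, SBI-dFBS-2 and StemPRO.

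**Figure D3:**
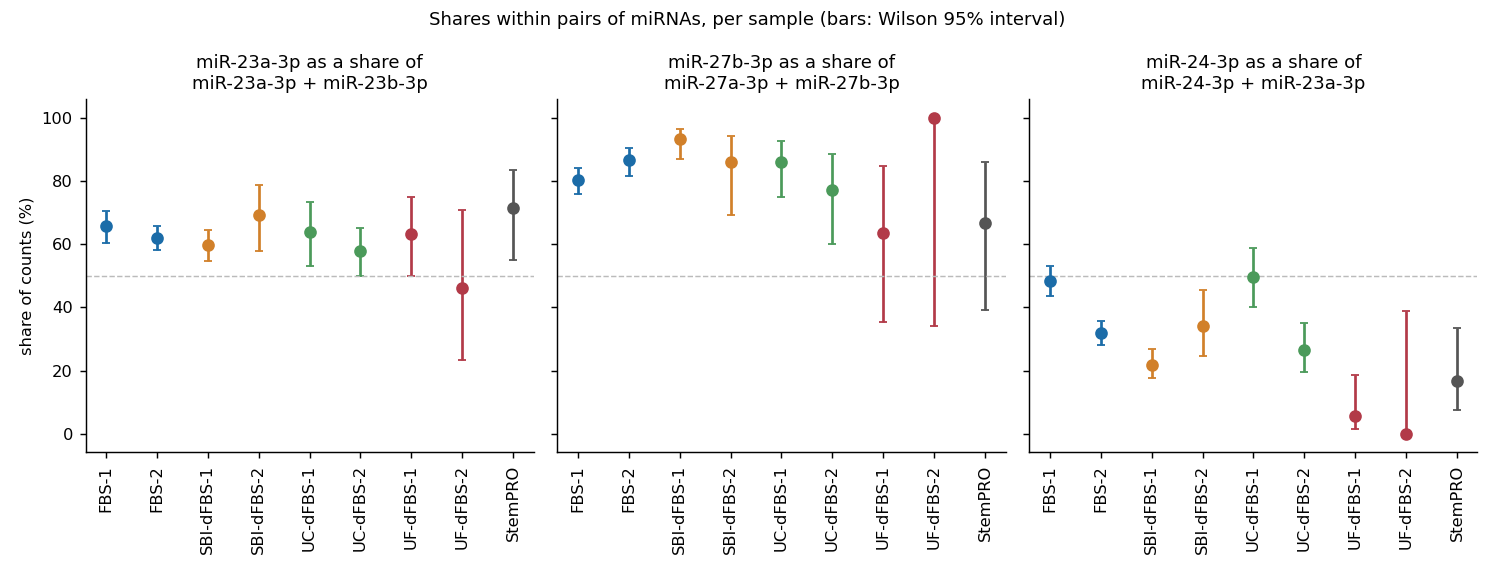
Share of counts (percent) of miR-23a-3p within the miR-23 pair, of miR-27b-3p within the miR-27 pair and of miR-24-3p against miR-23a-3p, per sample, with Wilson 95% intervals and a dashed line at equal counts. Points for miR-27b-3p lie above the line in 9 of 9 samples, while intervals in UF-dFBS and StemPRO are wide.

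Next, the media were compared with edgeR (quasi-likelihood F-test on the counts, with the spike-in factors as library sizes, 8 FBS-based samples, Benjamini-Hochberg adjustment over the 163 miRNAs that reached 10 counts in 2 or more of them). The 5 miRNAs entered the fit, but miR-27a-3p reached 10 counts in the FBS samples alone and so could only be found lower elsewhere. Its calls against FBS are listed below but are not read as support. The comparisons with FBS share the FBS samples and are not independent. With 2 samples per medium, the p-values rest on a spread pooled over media and miRNAs. They also leave out the error of the spike-in factors. Fold changes on the spike-in scale are set beside the median of all miRNAs tested, since scalings that use only the make-up of the library (TMM, total miRNA counts, or the size factors of DESeq2) moved this median to between -0.69 and 0.21 in these comparisons.

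In SBI-dFBS, miR-24-3p and miR-27b-3p were lower than in FBS. The log2 fold change was -2.25 ± 0.68 (SE) for miR-24-3p (edgeR adjusted p = 0.00570) and -2.21 ± 0.66 for miR-27b-3p (adjusted p = 0.00542). miR-27a-3p was also called lower, at -3.29 ± 1.01 (edgeR adjusted p = 0.00602), in a direction that the filter on low counts had fixed. miR-23a-3p, at -1.33 ± 0.63 (adjusted p = 0.0721), and miR-23b-3p, at -1.25 ± 0.65 (adjusted p = 0.0996), did not pass the threshold of 0.05, and their fold changes turned to 0.41 and 0.47 under TMM. Lower calls were made for 42.3% of all miRNAs tested, with a median log2 fold change of -1.70. Relative to this median, miR-24-3p lay at -0.55, miR-27b-3p at -0.52, miR-23a-3p at 0.37 and miR-23b-3p at 0.44. With the library scalings, 0 of the 5 passed, although miR-24-3p, miR-27a-3p and miR-27b-3p kept negative fold changes, and over all miRNAs the calls went from 69 lower and 2 higher to 7 lower and 3 higher under TMM. These calls depended on which library was left out, and they held when a UC-dFBS or UF-dFBS library was left out. Without FBS-2, miR-24-3p (-2.56) and miR-27b-3p (-2.66) kept theirs, and miR-27a-3p was under the filter on low counts. Without SBI-dFBS-1 the fold changes of miR-27a-3p, miR-24-3p and miR-27b-3p were -3.04, -2.28 and -2.64 and did not pass, with 4 of 158 miRNAs passing in all, and without SBI-dFBS-2 they were -3.49, -2.22 and -1.91, with 37 of 163 passing. Without FBS-1, miR-24-3p (-1.84) and miR-27b-3p (-1.56) did not pass, miR-27a-3p was under the filter on low counts, and 20 of 134 miRNAs passed.

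In UC-dFBS, the 5 miRNAs were lower than in FBS on the spike-in scale, which held for 90.8% of all miRNAs tested. The log2 fold change was -1.99 ± 0.67 for miR-23b-3p (edgeR adjusted p = 0.00539), -2.22 ± 0.65 for miR-23a-3p (adjusted p = 0.00178), -2.40 ± 0.68 for miR-24-3p (adjusted p = 0.00134), -2.88 ± 0.68 for miR-27b-3p (adjusted p = 0.000207) and -2.96 ± 0.97 for miR-27a-3p (adjusted p = 0.00431), beside a median of -2.70. Under TMM 0 of the 5 passed and the fold changes of miR-23a-3p, miR-23b-3p and miR-24-3p turned positive (0.40, 0.63 and 0.21), while over all miRNAs the lower calls went from 148 to 0. Without UC-dFBS-1, miR-23a-3p (-1.92) and miR-23b-3p (-1.56) did not pass, while 110 of 163 miRNAs did, and without UC-dFBS-2, miR-24-3p (-2.07) and miR-27a-3p (-2.83) did not pass, while 40 of 163 miRNAs did.

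Within each serum, the part left after ultracentrifugation was alike for some of the 5. miR-27b-3p was at 13.6% of FBS in the Sigma-Aldrich serum and 13.4% in the Gibco serum, and miR-24-3p was at 19.1% and 18.6%. miR-23a-3p was at 18.3% and 24.1%, miR-23b-3p at 19.8% and 28.9%, and miR-27a-3p, on 8 and 7 counts in UC-dFBS, at 8.98% and 25.5%.

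In UF-dFBS, the 5 miRNAs were lower than in FBS by the widest margin, as were 98.2% of all miRNAs tested. The log2 fold change was -7.24 ± 0.85 for miR-23b-3p (edgeR adjusted p = 2.3e-16), -7.56 ± 0.83 for miR-23a-3p (adjusted p = 1.9e-18), -8.09 ± 1.20 for miR-27a-3p (adjusted p = 5.2e-11), -9.24 ± 0.92 for miR-27b-3p (adjusted p = 1.5e-21) and -10.74 ± 1.03 for miR-24-3p (adjusted p = 9.0e-23). Against the median of -9.37, miR-23b-3p lay 2.13 and miR-23a-3p 1.81 higher, whereas miR-24-3p lay 1.38 lower; without the filter on low counts the median was -6.60 and both miR-23 members lay under it. Under TMM the fold changes turned to 2.17 for miR-23b-3p, 1.84 for miR-23a-3p, 1.42 for miR-27a-3p and 0.32 for miR-27b-3p, with 0 of the 5 passing, and over all miRNAs the calls went from 160 lower and 0 higher to 10 lower and 12 higher. miR-24-3p kept a negative fold change under each scaling.

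The fold changes of UF-dFBS rest on few counts. The pooled counts of both FBS samples, set against those of both UF-dFBS samples on the spike-in scale, gave a level 102-fold higher in FBS for miR-23a-3p (exact 95% interval 73.8 to 145) and 88.7-fold higher for miR-23b-3p (59.6 to 138). These intervals leave out the difference between the sera: within the Sigma-Aldrich and the Gibco serum, miR-23a-3p was 74.3-fold and 216-fold higher in FBS, and miR-23b-3p 67.2-fold and 113-fold. The pooled ratio was 335 for miR-27b-3p (175 to 737), on 9 counts in UF-dFBS, and 155 for miR-27a-3p (58.5 to 579), on 4 counts. For miR-24-3p, 390 counts in FBS stood against 2 in UF-dFBS, a ratio of 1257 (346 to 10413).

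Between the depleted media made from the same sera, the 5 miRNAs were lower in UF-dFBS than in UC-dFBS on the spike-in scale, beside 95.1% of all miRNAs tested. The log2 fold change ranged from -5.13 ± 1.15 (miR-27a-3p) to -8.34 ± 0.97 (miR-24-3p), with miR-23b-3p at -5.25 ± 0.79, miR-23a-3p at -5.34 ± 0.76 and miR-27b-3p at -6.36 ± 0.84, and the median of all miRNAs was -6.56. Without the filter on low counts the median was -3.84, and the 5 miRNAs all lay under it. Under TMM the fold changes of miR-23a-3p, miR-23b-3p, miR-27a-3p and miR-27b-3p turned positive (1.44, 1.54, 1.59 and 0.57) with 0 of the 5 passing, and over all miRNAs the calls went from 155 lower and 0 higher to 6 lower and 9 higher.

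**Figure D4:**
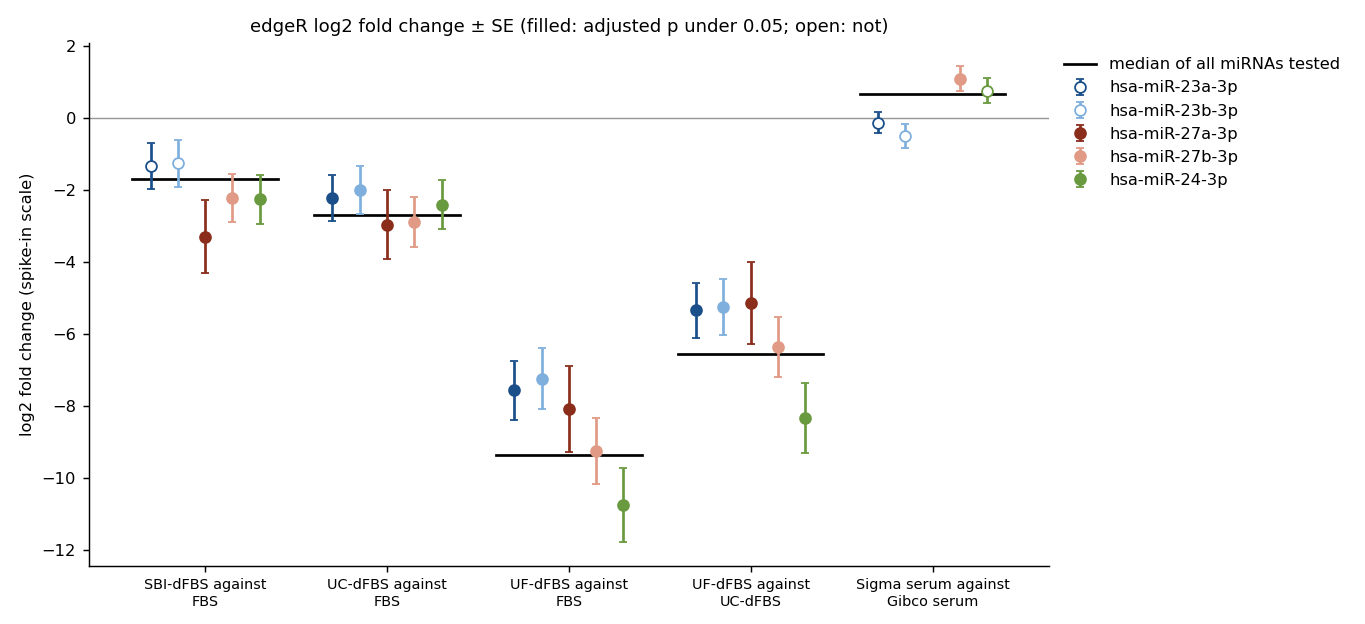
edgeR log2 fold change ± SE on the spike-in scale for each comparison, with filled points past the adjusted p threshold, open points not past it, and a black line at the median of all miRNAs tested. miR-24-3p lies lowest in both comparisons of UF-dFBS; with TMM scaling the other 4 turn positive there, and in UC-dFBS against FBS miR-23a-3p, miR-23b-3p and miR-24-3p do so.

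StemPRO, with 1 sample, was not tested. The interval of miR-23a-3p in StemPRO (0.150 to 0.342) lay under that of UF-dFBS-1 (0.411 to 0.839) and within that of UF-dFBS-2 (0.0917 to 0.544). For miR-23b-3p, StemPRO (0.0444 to 0.170) lay under UF-dFBS-1 (0.207 to 0.537) and overlapped with UF-dFBS-2 (0.117 to 0.600). For miR-24-3p, miR-27a-3p and miR-27b-3p, no difference between UF-dFBS and StemPRO was detectable at this depth.

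The Sigma-Aldrich and Gibco sera were compared over their 6 samples, with the medium as a term (edgeR, 105 miRNAs that reached 10 counts in 3 or more of them). Each supplier was represented by 1 serum, and its samples are preparations of that serum. The p-values therefore cover the spread between preparations, not between sera of a supplier. miR-27a-3p did not reach this minimum. miR-27b-3p was higher in the Sigma-Aldrich serum, 2.15-fold in FBS, 2.17-fold in UC-dFBS and 1.52-fold in UF-dFBS (7 against 2 counts), with a log2 fold change of 1.10 ± 0.34 (adjusted p = 0.00620); with total miRNA counts as library size it turned to -0.12. Higher calls were made for 44.8% of all miRNAs tested, with a median of 0.68. miR-24-3p was at 0.77 ± 0.36 (adjusted p = 0.0646), miR-23a-3p at -0.13 ± 0.29 (adjusted p = 0.765) and miR-23b-3p at -0.50 ± 0.34 (adjusted p = 0.226). With total miRNA counts as library size, miR-23a-3p, at -1.33, and miR-23b-3p, at -1.72, passed as lower in the Sigma-Aldrich serum, and over all miRNAs the calls went from 2 lower and 47 higher to 21 lower and 1 higher.

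The supplier calls, of the members as of miRNAs in general, turned on single libraries. miR-27b-3p kept a log2 fold change of 1.07 without FBS-1, FBS-2, UC-dFBS-1 or UC-dFBS-2 but did not pass, when 0 of 88, 0 of 89, 1 of 90 and 7 of 104 miRNAs passed in edgeR, and 8, 7, 12 and 14 had an unadjusted p under 0.05. Without UF-dFBS-1 or UF-dFBS-2, miR-27b-3p and miR-24-3p passed as higher and miR-23b-3p as lower in the Sigma-Aldrich serum, beside 56 of 103 and 58 of 105 miRNAs passing in either direction. Under TMM, miR-27b-3p (0.36) did not pass, and miR-23b-3p passed as lower in the Sigma-Aldrich serum (-1.17, edgeR adjusted p = 0.0294). miR-27a-3p was at 3.39 times the Gibco level in FBS and 1.19 times in UC-dFBS.

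Likeness between miRNAs was measured over 6 samples, those of SBI-dFBS, UC-dFBS and FBS. Over log2 shares of the miRNA counts, Pearson's r was 0.995 between miR-23a-3p and miR-23b-3p, 0.844 between miR-24-3p and miR-27b-3p and 0.833 between miR-24-3p and miR-27a-3p. It was 0.672 between miR-27a-3p and miR-27b-3p, 0.546 between miR-23b-3p and miR-27b-3p of the one locus, and 0.291 between miR-23a-3p and miR-27a-3p of the other. Across the loci it was 0.532 between miR-23a-3p and miR-27b-3p and 0.306 between miR-23b-3p and miR-27a-3p. The counts of miR-23a-3p were 3.26 (FBS-1), 13.4 (FBS-2) and 33.3 (SBI-dFBS-1) times those of miR-27a-3p. These are descriptions over 6 libraries that share sera and totals, and miR-27a-3p had few counts. How reads that match both names of a near-identical pair were placed is not known, which limits the reading of the 0.995.

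Among 76 other miRNAs with a mean of at least 50 counts, those most like miR-23a-3p on this scale were miR-361-5p (r = 0.973), miR-10a-5p (0.962) and miR-423-5p (0.962). For miR-23b-3p they were miR-361-5p (0.980), miR-423-5p (0.960) and miR-320a (0.949). For miR-24-3p they were miR-345-3p (0.972), miR-151a-3p (0.969) and miR-221-3p (0.967), and for miR-27b-3p miR-199a-3p (0.950), miR-199b-3p (0.947) and let-7d-5p (0.921). miR-27a-3p was under the minimum. The median r over the 76 was 0.450 for miR-23a-3p, 0.412 for miR-23b-3p, 0.597 for miR-24-3p and 0.420 for miR-27b-3p. On the spike-in scale over 8 samples with UF-dFBS, where the median r was 0.950 to 0.982, the 3 most alike kept 2 of these names for miR-23a-3p, 2 for miR-23b-3p, 1 for miR-24-3p and 0 for miR-27b-3p.

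The study also measured miR-23a-3p by qPCR, together with miR-451a, a red cell miRNA that it used as an EV marker. The ratio of both is a usual measure of haemolysis. UC-dFBS and UF-dFBS were made from the same sera as FBS, and differences in the ratio between these media were not read as haemolysis. The counts of miR-451a were 1.62 (FBS-1), 0.603 (FBS-2), 1.27 (SBI-dFBS-1) and 3.44 (SBI-dFBS-2) times those of miR-23a-3p. They were 0.472 (UC-dFBS-1) and 0.124 (UC-dFBS-2) times after ultracentrifugation, lower than in the untreated serum of the same supplier. After ultrafiltration they were 0.182 (UF-dFBS-1) and 0.333 (UF-dFBS-2) times, also lower than in the untreated serum, on 6 and 2 counts of miR-451a. In StemPRO they were 0.04 times, on 1 count. miR-451a was at a log2 fold change of -0.42 ± 0.62 in SBI-dFBS (edgeR adjusted p = 0.559), -4.26 ± 0.72 in UC-dFBS (adjusted p = 4.8e-07) and -9.72 ± 0.93 in UF-dFBS (adjusted p = 4.6e-23). The difference between its fold change and that of miR-23a-3p was not tested.

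Other lists of miRNAs were fitted in the same way. Their counts are to be read against the share and median of all miRNAs tested, which were 42.3% lower at a median of -1.70 (SBI-dFBS), 90.8% at -2.70 (UC-dFBS) and 98.2% at -9.37 (UF-dFBS). Of the other miRNAs measured by qPCR (miR-30c-5p, miR-103a-3p, miR-451a and miR-191-5p), 3 of 4 were lower in SBI-dFBS, with a median log2 fold change of -2.05, and 4 of 4 in UC-dFBS (-3.10) and UF-dFBS (-9.92). Of the endothelial miRNAs (miR-126-3p, miR-126-5p, miR-221-3p and miR-222-3p), 3 of 3 tested were lower against FBS, with medians of -3.39 (SBI-dFBS), -2.80 (UC-dFBS) and -13.72 (UF-dFBS). Of the white cell and platelet miRNAs (miR-223-3p, miR-142-3p and miR-150-5p), 3 of 3 were lower in each, at -5.60, -3.16 and -11.14. The red cell miRNAs (miR-451a, miR-144-3p, miR-144-5p and miR-486-5p) were lower in 0 of 4 in SBI-dFBS (-0.83) and in 4 of 4 in UC-dFBS (-4.50) and UF-dFBS (-9.98), with summed levels of 245 to 286 (FBS), 131 to 176 (SBI-dFBS) and 15.5 to 19.3 (UC-dFBS). miR-122-5p, a liver miRNA, did not pass in SBI-dFBS (-0.39) or UC-dFBS (-1.85) and was lower in UF-dFBS (-9.37). The part of these cell sources in the levels of miR-23, miR-24 and miR-27 was not tested.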

How the data were processed

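Small RNA libraries with unique molecular indices were made by the authors from EV isolates of 9 media samples. Per the labels and the study's methods, reads were processed with cutadapt 1.11 and mapped with Bowtie2 2.2.2 to miRBase 20 and human GRCh37. How reads that match several miRNAs were placed is not given in the sources used here. The deposited miRNA counts are raw counts per miRNA. The deposited spike-in normalized values, a signal relative to external spike-ins, equal these counts divided by 1 factor per sample; the fit of the spike-ins was not repeated, so that its error is in no interval.

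The 5 miRNAs and the lists were chosen with earlier results of these data known. miRNAs named beyond them were the other arms of the same hairpins, the miRNAs the study measured by qPCR, listed cell markers, and for each of the 5 the 3 miRNAs with the highest Pearson correlation of log2(CPM + 10), where CPM is scaled to 1000000 miRNA counts, over 6 samples. Levels were summarised in python 3.11.15, and R 4.3.3 with edgeR 4.0.16 was used for quasi-likelihood F-tests on the counts (spike-in factors as library sizes, threshold 0.05). The tests were run on simulated counts with changes in both directions, in UC-dFBS or in the Gibco serum. That check does not cover the UF-dFBS comparisons or a drop shared by most miRNAs. The medium fit held 8 samples and 163 miRNAs (at least 10 counts in at least 2 samples), and the supplier fit 6 samples and 105 miRNAs (in at least 3 samples), without and with the medium as a further term. SE was taken as the fold change divided by the square root of F. Depth ranged from 937 to 203755 miRNA counts.

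Alternatives were TMM, total miRNA counts, DESeq2 1.42.0 with its own or the spike-in factors, no filter, merged pairs, the serum as replicate block and leaving out each sample. The serum pairs FBS, UC-dFBS and UF-dFBS by their supplier label. Differences between the sera correlated over 163 miRNAs at 0.50 (FBS with UC-dFBS), 0.18 (FBS with UF-dFBS) and 0.023 (UC-dFBS with UF-dFBS). Other small RNA tables were not used here.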

Additional observations from a re-analysis of the deposited data

Results flagged for a closer look

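For miR-23a-3p, the ratio of the Sigma-Aldrich to the Gibco serum was 0.821 in FBS and 0.622 in UC-dFBS, but 2.39 in UF-dFBS. For miR-23b-3p it was 0.701 in FBS, 0.482 in UC-dFBS and 1.18 in UF-dFBS. Both were seen because the direction differed between media, with 1 sample per serum and medium, and the difference was not tested. In UF-dFBS the ratios rest on 33 against 6 counts of miR-23a-3p and 19 against 7 of miR-23b-3p.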

How the results depend on the processing

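With the spike-in factors, the number of the 5 miRNAs past the threshold was 3, 5, 5 and 5 for SBI-dFBS, UC-dFBS and UF-dFBS against FBS and UF-dFBS against UC-dFBS, and stayed so with DESeq2 given these factors and without the filter on low counts. Each number against FBS includes miR-27a-3p, which with the filter could only be found lower than in FBS. TMM and total miRNA counts gave 0 in these 4 comparisons, as did DESeq2 with its own size factors, except for 1 in UF-dFBS against FBS (miR-23b-3p as higher, DESeq2 adjusted p = 0.0494, on 122 miRNAs with an adjusted p). For the suppliers the number was 1, and 1 with TMM (miR-23b-3p as lower, in place of miR-27b-3p), 2 with total miRNA counts, 0 with DESeq2 with its own size factors and 0 with DESeq2 with the spike-in factors.

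Leaving out 1 sample gave 0 to 3, 3 to 5, 4 to 5, 4 to 5 and, for the suppliers, 0 to 3; the 4 arose where miR-27a-3p fell under the filter without an FBS sample. A lone sample is then assumed to vary like the other groups. The log2 fold change of miR-23a-3p between suppliers then ranged from -0.45 to 0.40, and was 0.038 with DESeq2 and spike-in factors.

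With the serum as replicate block, 5 of 5 passed in each of UC-dFBS against FBS, UF-dFBS against FBS and UF-dFBS against UC-dFBS, and the block changed no call of the 5. Of all 158 miRNAs tested with the block, 97.5%, 98.7% and 96.2% passed in these comparisons. No paired analysis was possible for SBI-dFBS because it shares no serum with FBS.

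Fold changes that turned positive are given in the order TMM, total miRNA counts, DESeq2 with its own size factors. In UF-dFBS against FBS they were 1.84, 1.77 and 1.80 (miR-23a-3p), 1.42, 1.37 and 1.27 (miR-27a-3p), 2.17, 2.19 and 2.13 (miR-23b-3p), and 0.32, 0.33 and 0.23 (miR-27b-3p). In UF-dFBS against UC-dFBS they were 1.44, 1.74 and 1.56 (miR-23a-3p), 1.59, 1.84 and 1.63 (miR-27a-3p), 1.54, 1.93 and 1.67 (miR-23b-3p), and 0.57, 0.94 and 0.64 (miR-27b-3p). In UC-dFBS against FBS they were 0.40, 0.034 and 0.24 (miR-23a-3p) and 0.63, 0.26 and 0.46 (miR-23b-3p), and for miR-24-3p 0.21 with TMM and 0.056 with DESeq2. In SBI-dFBS against FBS, TMM and DESeq2 gave 0.41 and 0.27 (miR-23a-3p) and 0.47 and 0.32 (miR-23b-3p). Total miRNA counts turned the supplier difference to -0.42 for miR-24-3p and -0.12 for miR-27b-3p. As shares of the miRNA counts, ratios of means to FBS rose above 1 for UC-dFBS (1.03 for miR-23a-3p, 1.21 for miR-23b-3p) and UF-dFBS (3.32 for miR-23a-3p, 1.68 for miR-27a-3p, 4.74 for miR-23b-3p, 1.31 for miR-27b-3p). These scalings set the library's own miRNA content as the reference.

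Merging the near-identical pairs left miR-23a-3p plus miR-23b-3p not past the threshold in SBI-dFBS (-1.31, edgeR adjusted p = 0.0757) and miR-27a-3p plus miR-27b-3p past it (-2.35, adjusted p = 0.00267). The numbers of all miRNAs past the threshold moved from 71 to 10, 16 and 10 (SBI-dFBS), from 148 to 0, 1 and 2 (UC-dFBS), from 160 to 22, 18 and 23 (UF-dFBS), from 155 to 15, 15 and 16 (UF-dFBS against UC-dFBS) and from 49 to 13, 22 and 4 (suppliers) with TMM, total miRNA counts and DESeq2 with its own size factors, to 18 for the suppliers with DESeq2 and spike-in factors, and to 282 of 419 for UF-dFBS without the filter. Leaving out 1 sample gave 4 to 78, 40 to 151, 131 to 160, 130 to 156 and 0 to 58. Depth limits UF-dFBS and StemPRO, where a value often rested on under 10 counts.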
